A study of Mus musculus with 6 samples.

Results

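The genes described here are 42 genes of the unfolded protein response and the integrated stress response, listed by name for their known roles, a list drawn up with earlier results of these data known. Of these, 41 were measured by an array feature paired with their symbol alone, out of 22180 genes so named. The feature that carries Pdia4 is also paired with the microRNA gene Mir704, so Pdia4 is not among the 41. Levels are log2 intensities on 6 whole-transcript Affymetrix arrays of J774A.1, an established macrophage line from Balb/c mice, grown in RPMI-1640 with fetal calf serum. The 3 NPFF arrays come from cells given neuropeptide FF at 1 nM in PBS for 18 h, and the 3 control arrays from cells given the PBS vehicle for 18 h, which the titles call non-treated. The labels call the arrays of a group biological replicates of this 1 line and name no culture days, so a p-value here speaks only to the spread among these arrays, which may be technical. In RNA from a whole culture, fewer cells of a state and less RNA per cell cannot be told apart. All differences are NPFF minus control on the log2 scale.

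As background, the unfolded protein response adjusts the folding capacity of the endoplasmic reticulum (ER) to its load of secretory and membrane proteins. The ER membrane sensors Ern1 (IRE1), Eif2ak3 (PERK) and Atf6 act through the transcription factors Xbp1, Atf4 and cleaved Atf6, which induce chaperones, disulfide isomerases and the machinery of ER-associated degradation. The integrated stress response overlaps with it at PERK: phosphorylation of the initiation factor eIF2 lowers general translation, favours translation of Atf4 and, through Atf4, induces genes of amino acid metabolism and Ddit3 (CHOP). Much of both responses runs through splicing of Xbp1 mRNA, cleavage of Atf6 and translation of Atf4, which a gene-level array does not read. Macrophages make cytokines and lysosomal enzymes through the ER.

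Some of the promoters of these genes hold elements through which the response is known to act. RefSeq promoter sequences (GRCm38.p6) matched 33 of the 42 genes by symbol, and the 250 bases before each annotated start were searched on both strands. The ER stress response element (ERSE), CCAAT and CCACG separated by 9 bases, was present in 9 of the 33 genes (27.3%), namely Calr, Canx, Creld2, Derl3, Dnajc3, Hsp90b1, Hspa5, Pdia6 and Syvn1, and in 35 of all 27025 genes with a promoter in the same table (0.13%). ERSE-II, ATTGG and CCACG separated by 1 base, was found in Herpud1 and in 10 of the 27025 genes (0.037%). The core of the C/EBP-ATF response element (CARE), TGATG and AA separated by 1 base, was found in Asns, Chac1 and Herpud1, or 9.09% of the 33, against 3.91% of all genes. The core of the unfolded protein response element (UPRE), TGACG followed directly by TGG, matched 0 of the 33 and 0.603% of all genes. No match says only that these letters are not in this window. The genes were listed for known roles in the response that these elements serve, so the shares describe the list and test nothing. None of the 33 windows held both ERSE and ERSE-II, which share their half-sites.

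Stretches of 9 promoters are given because they carry ERSE, ERSE-II or CARE in genes whose values are described array by array. Each is written on the gene's own strand, 5′ to 3′, with the matched element in capitals, the gap bases included. Hspa5 lies at chr2:34772000-34772068 (+ strand), Pdia6 at chr12:17266466-17266534 (+), Creld2 at chr15:88819495-88819563 (+), Syvn1 at chr19:6046507-6046575 (+), Calr at chr8:84847050-84847118 (- strand), Canx at chr11:50325775-50325843 (-), Herpud1 at chr8:94386292-94386412 (+), Asns at chr6:7693210-7693257 (-) and Chac1 at chr2:119351024-119351081 (+).
Hspa5: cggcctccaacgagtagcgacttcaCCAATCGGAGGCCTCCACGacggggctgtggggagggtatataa
Pdia6: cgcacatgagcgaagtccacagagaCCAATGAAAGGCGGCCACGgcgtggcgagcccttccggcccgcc
Creld2: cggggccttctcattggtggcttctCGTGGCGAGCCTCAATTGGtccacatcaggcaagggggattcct
Syvn1: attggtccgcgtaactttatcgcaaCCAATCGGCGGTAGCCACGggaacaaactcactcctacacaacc
Calr: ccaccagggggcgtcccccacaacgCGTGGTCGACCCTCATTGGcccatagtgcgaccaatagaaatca
Canx: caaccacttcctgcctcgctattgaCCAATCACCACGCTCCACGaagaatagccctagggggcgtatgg
Herpud1: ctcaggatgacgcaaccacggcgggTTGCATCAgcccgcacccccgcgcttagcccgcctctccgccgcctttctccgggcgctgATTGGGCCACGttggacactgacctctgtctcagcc
Asns: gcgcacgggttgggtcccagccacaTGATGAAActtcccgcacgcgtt
Chac1: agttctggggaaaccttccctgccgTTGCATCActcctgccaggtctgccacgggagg
The ERSE lay 65 to 47 bases before the annotated start in Hspa5, 98 to 80 in Pdia6, 145 to 127 in Canx and 44 to 26 in Syvn1, in the same orientation as the gene. In Creld2, at 126 to 108, and in Calr, at 162 to 144, it read on the opposite strand. The CARE lay 23 to 16 bases before the start in Asns, 112 to 105 in Herpud1 and 193 to 186 in Chac1.

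Arrays were not equally alike, which bears on every value below. As deposited, control 1 had a median of 6.38 and an interquartile range of 2.04. On the other 5 arrays the medians were 6.24 to 6.29 and the interquartile ranges 2.31 to 2.41. After quantile normalization, Pearson's r across genes, which are no independent replicates, was 0.965 to 0.979 between control 1 and each other array. Among the other 5 it was 0.992 to 0.998. The macrophage markers Adgre1, Csf1r, Cd68, Lyz2, Itgam, Fcgr1, Mertk and Cd14 ranged from the 58.8th to the 99.9th percentile of mean signal, and their mean lay at 10.49 to 10.85 over the control arrays and 10.74 to 10.85 over the NPFF arrays. Of 23 measured markers of fibroblasts, epithelium, endothelium, lymphocytes, plasma cells, neutrophils and mast cells, the brightest lay at the 62.7th percentile. The part of control 1 in the results was measured by leaving it out and by setting the NPFF arrays against each control. Control 1 was singled out from these same arrays. Intervals and p-values without it are therefore too narrow and too small to be read at face value.

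The stress-response genes stood low in control 1 and at similar levels on the other 5 arrays. The mean over the 41 genes was 9.45 in control 1, 9.73 in control 2 and 9.74 in control 3, against 9.71, 9.73 and 9.69 in NPFF 1, 2 and 3. The group means were 9.64 ± 0.17 and 9.71 ± 0.02 (SD, n = 3 each), and the NPFF arrays lay between control 1 and the other 2 controls. Control 1 was the lowest of the 6 arrays in 29 of the 41 genes (70.7%), against 48.9% of all genes and 56.7% of the brightest 25% of all genes, which is set beside them because the median stress-response gene lay at the 92.5th percentile of mean signal. The SD was larger in the control group than in the NPFF group in 37 of the 41 genes (90.2%), against 80.4% of all genes and 85.8% of the brightest 25%.

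**Figure D1:**
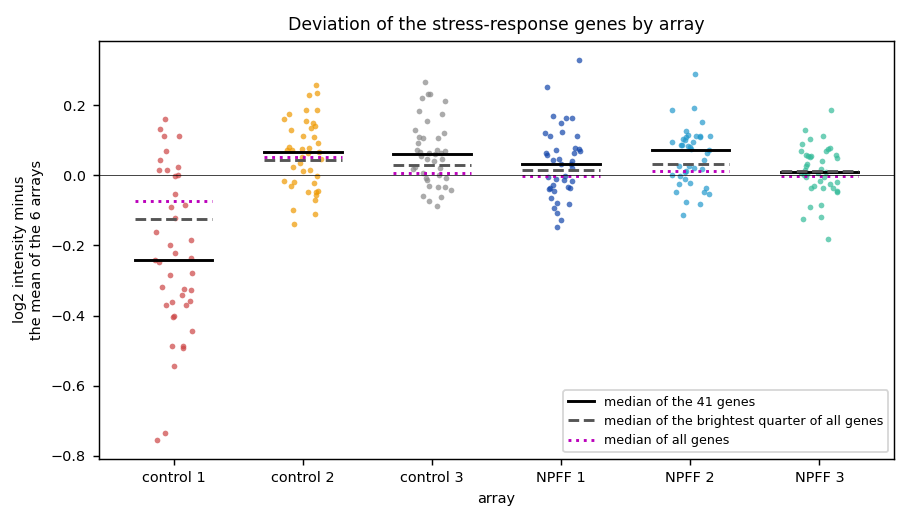
Deviation of each of the 41 stress-response genes (points, spread sideways for legibility) from its mean over the 6 arrays, in log2 intensity, with medians of the 41 genes (solid lines), of the brightest 25% of all genes (dashed) and of all genes (dotted). The median of the 41 genes was -0.24 in control 1 and between 0.01 and 0.07 on the other 5 arrays.

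None of the 41 genes passed limma at an adjusted p under 0.05, and neither did any of the 22180 genes (0%); the smallest adjusted p among the 41 was 1.00. At an unadjusted p under 0.05, Pdia6 and Dnajb11 were higher in NPFF, where 0.834% of all genes were, and 0 of the 41 genes were lower, where 1.67% of all genes were. Of the 5545 genes in the brightest 25%, 114 were higher and 151 lower at that p. With the values as deposited or with arrays centred on their medians, 0 of the 41 genes had an unadjusted p under 0.05, and with cyclic loess Pdia6 and Sdf2l1 (higher) and Ddit3 and Dnajb9 (lower) did. Over all genes, 556 had such a p here, 499 with the values as deposited, 371 with arrays centred on their medians and 765 with cyclic loess. The split of such calls over all genes moved with the scaling, from 33.3% higher here to 19.0% with the values as deposited, 12.1% with arrays centred on their medians and 42.4% with cyclic loess. By the means of the groups, 28 of the 41 genes (68.3%) were higher in NPFF and 13 lower, against 51.7% of all genes higher and 60.0% of the brightest 25%. The median difference was 0.07, against 0.00 over all genes and 0.04 over the brightest 25%.

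Taken against each control by itself, the genes leaned to the higher side against control 1 and not against controls 2 and 3. Against control 1, the NPFF mean was higher in 32 of the 41 genes (78.0%; 62.6% of all genes), with a median difference of 0.29 (0.07 over all genes). Against control 2 it was higher in 19 (46.3%; 35.8% of all genes), with a median of -0.02 (-0.04 over all genes). Against control 3 it was higher in 19 (46.3%; 48.0% of all genes), with a median of -0.02 (-0.0044 over all genes). These comparisons share the 3 NPFF arrays. Of the brightest 25% of all genes, 66.3% were higher against control 1, 42.1% against control 2 and 45.9% against control 3. Their medians were 0.14, -0.03 and -0.01, so all genes, with 0.07 against control 1, are the lower of these comparators there. Without control 1, 17 of the 41 genes were higher (41.5%; 39.1% of all genes, 42.6% of the brightest 25%) and the median was -0.01 (-0.02 over the brightest 25%).

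**Figure D2:**
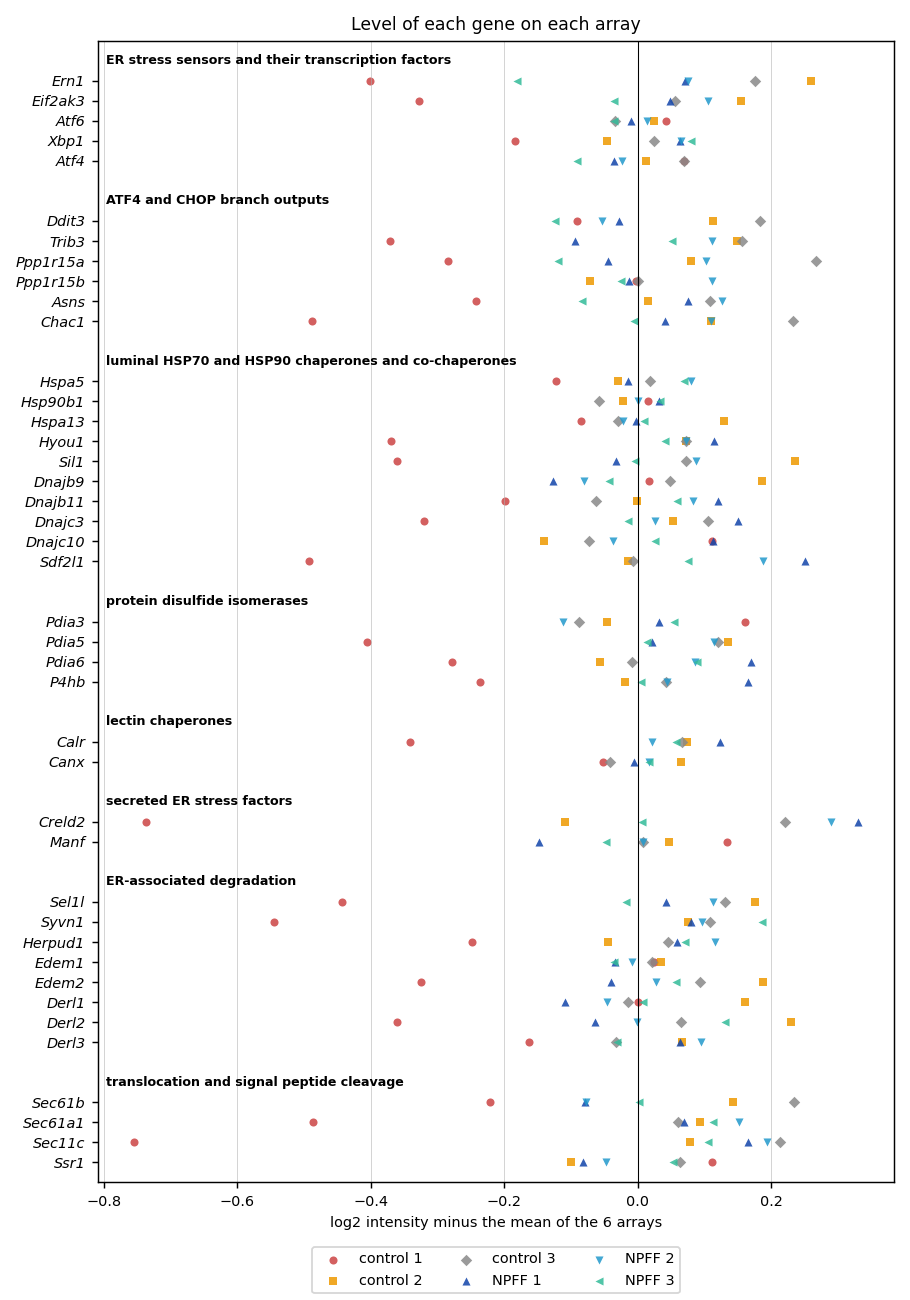
Log2 intensity of each of the 41 genes on each array, minus the gene's mean over the 6 arrays, ordered by role. Red circles (control 1) lie to the left in 29 genes, as for Creld2 and Sec11c, while the NPFF triangles lie right of all controls in Xbp1, Dnajb11, Sdf2l1, Pdia6 and Herpud1 and left of them in Atf4, Dnajb9 and Edem1.

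In 5 of the 41 genes (12.2%) all NPFF arrays lay above all controls, where 3.67% of all genes and 7.77% of the brightest 25% did; these were Xbp1, Dnajb11, Sdf2l1, Pdia6 and Herpud1. In 3 genes (7.32%), Atf4, Dnajb9 and Edem1, they lay below, where 4.92% of all genes and 7.43% of the brightest 25% did. Which genes these are depended on the scaling: with the values as deposited they were Hsp90b1, Dnajc10, Sdf2l1 and Pdia6 above and Atf4 below, and with arrays centred on their medians Hsp90b1 alone above and 0 genes below. With cyclic loess the 8 genes held, with Sec61a1 added above and Ddit3 and Manf below. Over all 22180 genes, 813 lay above and 1091 below here. The counts were 570 and 1077 as deposited, 365 and 1028 with arrays centred, and 1178 and 1112 with cyclic loess. Less strictly, the NPFF mean was above each of the 3 controls in 12 of the 41 genes (29.3%; 11.9% of all genes, 19.3% of the brightest 25%) and below each in 5 (12.2%; 13.2% of all genes, 16.1% of the brightest 25%).

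Among the sensors and their transcription factors, Xbp1 was the highest relative to control and Atf4 the lowest. Xbp1 mRNA, the substrate of IRE1 splicing, stood at 10.79, 10.92 and 11.00 in controls 1, 2 and 3 and at 11.03, 11.04 and 11.05 in the NPFF arrays. The groups did not overlap, and the difference was 0.14 (SE 0.07; 95% interval -0.04 to 0.31). Without control 1 it was 0.08, and against control 3 alone 0.05. Atf4, which drives the amino acid genes of the integrated stress response, stood at 9.67, 9.61 and 9.66 in control and 9.56, 9.57 and 9.50 in NPFF, a difference of -0.10 (SE 0.06; interval -0.24 to 0.04). Here control 1 was not apart, and the difference lay between -0.12 and -0.06 against each control. The sensors were close to 0 over all arrays, with differences of -0.02 (SE 0.18) for Ern1, 0.08 (SE 0.13) for Eif2ak3, which was -0.07 without control 1, and -0.02 (SE 0.06) for Atf6. Ern1 was 9.45 in control 1, 10.11 and 10.03 in controls 2 and 3, and 9.92, 9.93 and 9.67 in NPFF; without control 1 its difference was -0.23 (interval -0.44 to -0.02).

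The outputs of the Atf4 and CHOP branch did not move one way. Ddit3, which encodes the transcription factor CHOP, stood at 9.57, 9.77 and 9.84 in control and 9.63, 9.61 and 9.54 in NPFF, a difference of -0.14 (SE 0.09; interval -0.35 to 0.07). The NPFF arrays overlapped control 1 and lay below the other controls, and without control 1 the difference was -0.22 (interval -0.36 to -0.07; unadjusted p = 0.00846, adjusted p = 0.374 by limma). Ppp1r15a (GADD34), the stress-induced subunit that directs dephosphorylation of eIF2, was 8.12, 8.49 and 8.67 in control and 8.36, 8.51 and 8.29 in NPFF, a difference of -0.04 (SE 0.15). Its constitutive relative Ppp1r15b differed by 0.05 (SE 0.07), with control values of 9.40, 9.33 and 9.40 and NPFF values of 9.39, 9.51 and 9.38.

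Trib3, Asns and Chac1 shared a pattern in which control 1 was low and the NPFF arrays sat near controls 2 and 3. Trib3, a pseudokinase induced by CHOP, was 9.07, 9.59 and 9.60 in control and 9.35, 9.56 and 9.50 in NPFF, a difference of 0.04 (SE 0.15). Asns, asparagine synthetase, was 11.47, 11.73 and 11.82 in control and 11.79, 11.84 and 11.63 in NPFF, a difference of 0.08 (SE 0.11). Chac1, an enzyme that degrades glutathione, was 8.56, 9.16 and 9.28 in control and 9.09, 9.16 and 9.04 in NPFF, a difference of 0.10 (SE 0.19). Against control 3 alone these became -0.13, -0.07 and -0.18. For the 6 genes of this branch the median was 0.27 against control 1, -0.08 against control 2 and -0.16 against control 3, where 1 of the 6 was higher.

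The HSP70 and HSP90 chaperones of the ER lumen and their partners were higher in 8 of 10 cases, with a median of 0.08, and in 7 of 10 against control 2 and against control 3, with medians of 0.02 and 0.03. Hspa5 (BiP), the main luminal HSP70 and the standard readout of the response, stood at 9.44, 9.54 and 9.59 in control and 9.55, 9.65 and 9.64 in NPFF. The groups overlapped at NPFF 1, and the difference was 0.09 (SE 0.07; interval -0.07 to 0.25), or 1.06-fold, and 0.05 without control 1. Sdf2l1, a partner of BiP and the J proteins, had the largest difference of the group: 9.47, 9.94 and 9.95 in control against 10.21, 10.14 and 10.03 in NPFF, or 0.34 (SE 0.14), 1.27-fold. All its NPFF arrays lay above all controls, and without control 1 the difference was 0.18 (interval 0.02 to 0.34; adjusted p = 0.426 by limma). Dnajb11 (ERdj3), a J protein that hands substrates to BiP, was 9.65, 9.85 and 9.79 in control and 9.97, 9.93 and 9.91 in NPFF, a difference of 0.18 (SE 0.07) and of 0.12 without control 1.

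Dnajb9 (ERdj4), the J protein that keeps IRE1 in check and is a classical Xbp1 target, went the other way. It stood at 8.76, 8.93 and 8.79 in control and at 8.62, 8.66 and 8.70 in NPFF, with no overlap, and the difference was -0.17 (SE 0.07; interval -0.34 to 0.00). It differed by -0.10, -0.27 and -0.13 against controls 1, 2 and 3, and by -0.20 without control 1 (interval -0.35 to -0.05; adjusted p = 0.385 by limma). The other 6 lay close to or within 1 SE of 0. Differences were 0.15 (SE 0.13) for the large HSP70 relative Hyou1, 0.11 (SE 0.12) for Dnajc3, a co-chaperone that restrains PERK, 0.07 (SE 0.09) for the reductase Dnajc10 and 0.04 (SE 0.06) for Hsp90b1 (GRP94). They were 0.03 (SE 0.15) for Sil1, the nucleotide exchange factor of BiP, and -0.01 (SE 0.07) for the microsomal HSP70 Hspa13. For Hyou1 the whole difference lay in control 1, since it was 0.00 against control 2 and 0.00 against control 3. Without control 1, Dnajc3 was at -0.03, Sil1 at -0.14 and Dnajc10 at 0.14.

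Of the 4 measured protein disulfide isomerases, which form and shuffle disulfide bonds in the ER, 3 were higher in NPFF. Pdia6, a regulator of IRE1 as well as an isomerase, stood at 10.15, 10.37 and 10.42 in control and 10.59, 10.51 and 10.51 in NPFF. All NPFF arrays lay above all controls; the difference was 0.23 (SE 0.09; interval 0.02 to 0.44), or 1.17-fold, and 0.15 (interval 0.01 to 0.29) without control 1. It is 1 of the genes with an ERSE before its start, shown above. P4hb (PDI) was 10.44, 10.65 and 10.72 in control and 10.84, 10.72 and 10.68 in NPFF, a difference of 0.14 (SE 0.09) that was 0.06 without control 1. Pdia5 differed by 0.10 (SE 0.15) and by -0.08 without control 1, and Pdia3 (ERp57), which works with calnexin and calreticulin, by -0.02 (SE 0.09). The feature shared by Pdia4 and Mir704, which was not assigned to a gene, had group means of 7.07 ± 0.12 and 7.12 ± 0.02 (SD, n = 3 each).

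The lectin chaperones, which hold glycoproteins during folding, differed little outside control 1. Calr (calreticulin) was 11.85, 12.27 and 12.26 in control and 12.32, 12.21 and 12.25 in NPFF, a difference of 0.13 (SE 0.12) that was 0.00 against control 3 and -0.01 against control 2. Canx (calnexin) was 12.74, 12.86 and 12.75 in control and 12.79, 12.81 and 12.81 in NPFF, a difference of 0.02 (SE 0.06; interval -0.13 to 0.17).

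Of the 2 secreted ER stress factors, Creld2 was higher and Manf lower by group means, but both were lower against control 3. Creld2 had the largest difference of the 41 genes and one of the largest spreads: 9.19, 9.82 and 10.15 in control against 10.26, 10.22 and 9.93 in NPFF, or 0.42 (SE 0.24; interval -0.16 to 1.00), 1.34-fold. It differed by 0.95 against control 1, 0.32 against control 2 and -0.01 against control 3. Manf, a neurotrophic factor released under ER stress, was 8.19, 8.10 and 8.07 in control and 7.91, 8.07 and 8.01 in NPFF, a difference of -0.12 (SE 0.07), and was lower against each control, with values from -0.20 to -0.07.

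**Figure D3:**
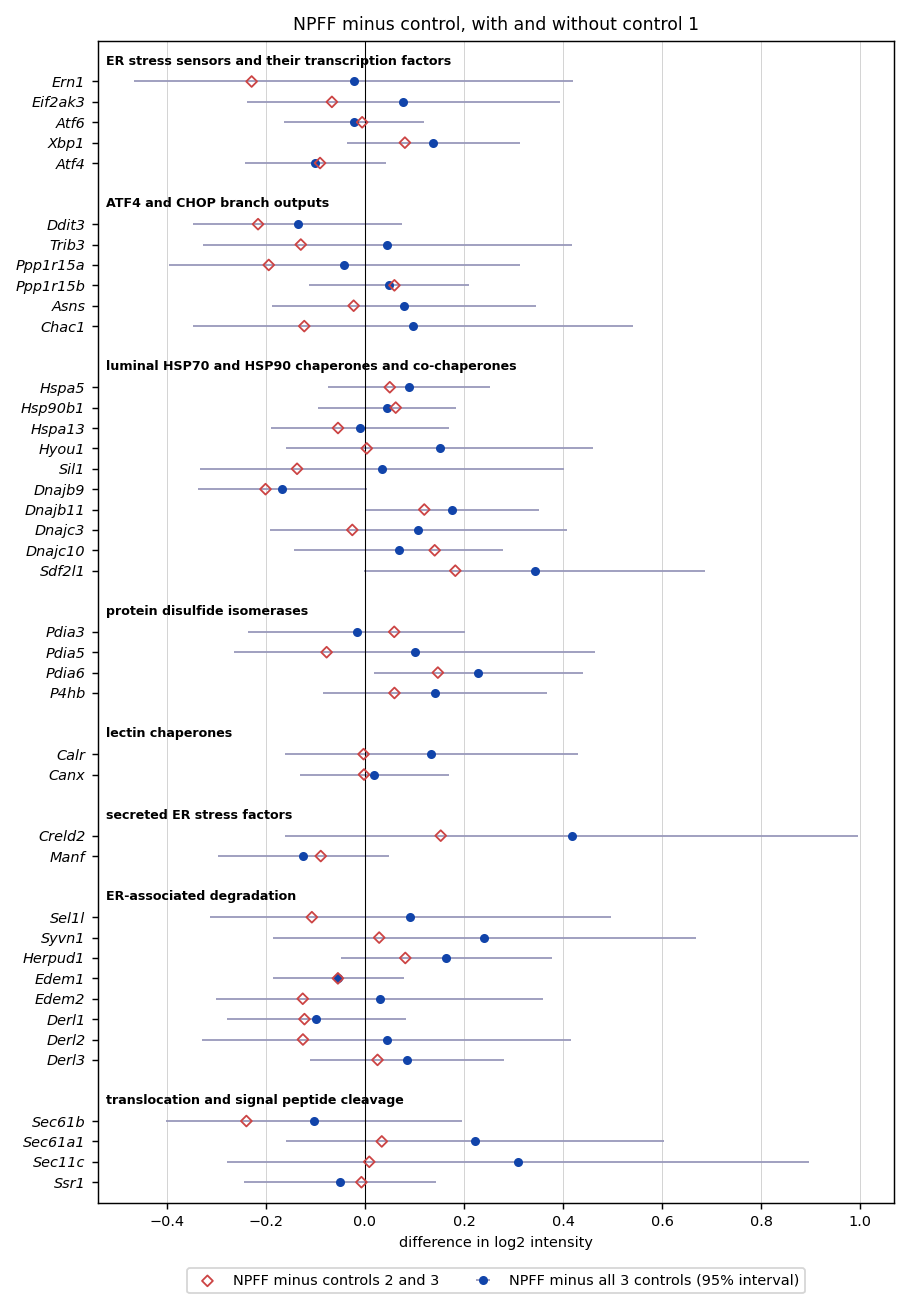
Difference in log2 intensity between NPFF and control for each of the 41 genes, from all 6 arrays with its 95% interval by limma (filled circles and bars) and against controls 2 and 3 alone (open diamonds). The intervals of Pdia6 and Dnajb11 lie above 0 before adjustment over all genes, which neither does with the values as deposited or centred, and leaving out control 1 moves Creld2 from 0.42 to 0.15 and Sec11c from 0.31 to 0.01.

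ER-associated degradation returns misfolded proteins to the cytosol for the proteasome, and 6 of its 8 genes were higher in NPFF, but 2 of 8 against control 2 and 3 of 8 against control 3. Herpud1, a scaffold of the retrotranslocation complex and the gene with both ERSE-II and CARE in its promoter, stood at 9.62, 9.83 and 9.92 in control and 9.93, 9.99 and 9.94 in NPFF. The groups did not overlap, though control 3 and NPFF 1 lay next to each other, and the difference was 0.16 (SE 0.09; interval -0.05 to 0.38), or 0.08 without control 1. Syvn1 (HRD1), the ubiquitin ligase of this pathway, was 7.37, 7.99 and 8.02 in control and 7.99, 8.01 and 8.10 in NPFF, a difference of 0.24 (SE 0.18), and 0.03 without control 1. Its adaptor Sel1l was likewise low in control 1, with 9.46, 10.08 and 10.03 in control, 9.95, 10.02 and 9.88 in NPFF, and a difference of 0.09 (SE 0.17). All NPFF arrays of Sel1l lay below controls 2 and 3, and without control 1 its difference was -0.11.

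Edem1, a mannosidase-like factor that marks glycoproteins for degradation, had the tightest values of the set. It stood at 11.13, 11.14 and 11.13 in control and 11.07, 11.10 and 11.07 in NPFF, which is -0.05 (SE 0.06) without overlap, and between -0.06 and -0.05 in every fit that left out 1 array. A second, dimmer feature of Edem1 differed by -0.02, with overlap. Edem2 differed by 0.03 (SE 0.14), and the derlins, membrane proteins of the same channel, by -0.10 (SE 0.08) for Derl1, 0.04 (SE 0.16) for Derl2 and 0.09 (SE 0.08) for Derl3. Without control 1, Edem2 was at -0.13, Derl1 at -0.12, Derl2 at -0.13 and Derl3 at 0.03. Derl3 was dim, at the 42.7th percentile of mean signal. A second, dimmer feature of Derl2 differed by -0.05. The feature shared by Mis12 and Derl2, which was not assigned to a gene, differed by 0.41, with overlap.

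Genes of translocation into the ER were divided 2 to 2. Sec61a1, the pore of the translocon, was 11.07, 11.66 and 11.62 in control and 11.63, 11.71 and 11.67 in NPFF, a difference of 0.22 (SE 0.16). Sec11c, a catalytic subunit of signal peptidase, was 9.02, 9.85 and 9.99 in control and 9.94, 9.97 and 9.88 in NPFF, a difference of 0.31 (SE 0.24). Both were set apart by control 1, and without it they differed by 0.03 and 0.01. Sec61b, a small subunit of the translocon at the 39.7th percentile of signal, differed by -0.10 (SE 0.12) and by -0.24 without control 1 (interval -0.38 to -0.09; unadjusted p = 0.00543, adjusted p = 0.358 by limma). Ssr1, a subunit of the translocon-associated complex, differed by -0.05 (SE 0.08). Second, dimmer features of Sec61b and Ssr1 differed by -0.03 and -0.07 over all arrays.

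Without control 1, 6 of the 41 genes had an unadjusted p under 0.05. Sdf2l1 and Pdia6 were higher, where 3.59% of all genes were, and Ern1, Ddit3, Dnajb9 and Sec61b lower, where 7.21% of all genes were. No gene of the 22180 passed after adjustment in that fit (0%). Leaving out the most distant control narrowed the spread, as for Ddit3, whose SE went from 0.09 to 0.06. Over all genes, 2397 had an unadjusted p under 0.05 by limma in that fit, against 556 with all arrays. Without control 2, 3 of the 41 genes had such a p (658 of all genes), and without control 3, 4 did (937 of all genes).

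The 9 genes with an ERSE were all higher by group means, with a median of 0.11. They were higher in 9 of 9 cases against control 1, 6 against control 2 and 7 against control 3, with medians of 0.37, 0.04 and 0.03. The 23 measured genes of the set whose window held no ERSE were higher in 14 cases, with medians of 0.29, -0.06 and -0.07 against the controls in that order. Of 18 measured genes outside the set with an ERSE, 8 were higher, with a median of -0.01; against the controls in order 11, 7 and 12 were higher, with medians of 0.03, -0.03 and 0.03. The largest differences among the 9 were those of Creld2, Syvn1 and Pdia6, and only Pdia6 among them was without overlap between groups.

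Of 101 other genes tied to these pathways, 92 were measured, with a median at the 88.0th percentile of mean signal. Of these, 64 were higher in NPFF (69.6%, against 51.7% of all genes and 60.0% of the brightest 25%), and 0 passed limma after adjustment. Against controls 1, 2 and 3, 77.2%, 51.1% and 56.5% of them were higher, where 66.3%, 42.1% and 45.9% of the brightest 25% were. Without control 1, 55.4% of them were higher, against 39.1% of all genes and 42.6% of the brightest 25%. Other Atf4 targets, which serve amino acid uptake and synthesis, tRNA charging and stress signalling, were higher in 23 of 26 cases, with a median of 0.11. They were higher in 24 of 26 against control 1, 17 (65.4%) against control 2 and 19 (73.1%) against control 3, with medians of 0.28, 0.05 and 0.04. Without control 1, 20 of the 26 were higher (76.9%), with a median of 0.03. Fgf21, a stress-induced hormone, differed by 0.24 (SE 0.06) with dim signal at the 39.4th percentile, Cebpg, a partner of Atf4 on DNA, by 0.29 (SE 0.12), and Psph, of serine synthesis, by 0.22 (SE 0.09). Against controls 1, 2 and 3 in turn, Cebpg differed by 0.53, 0.12 and 0.21, and Psph by 0.37, 0.22 and 0.07. Atf3, a stress-induced relative of Atf4, differed by -0.18 (SE 0.21) and the cystine transporter Slc7a11 by -0.11 (SE 0.12); these and Slc3a2, at -0.01 (SE 0.06), were the 3 that were lower. Atf3 was 0.24 against control 1, -0.27 against control 2 and -0.51 against control 3.

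Among the eIF2 kinases and the eIF2 and eIF2B subunits, 4 of 10 were higher, with a median of -0.03; Eif2b1 differed by 0.14 (SE 0.09), Eif2ak1 (HRI) by -0.12 (SE 0.08) and Eif2ak4 (GCN2) by -0.11 (SE 0.08). Partners of oxidative folding were higher in 7 of 10 cases, with a median of 0.14, and in 5 of 10 against control 2 and 4 of 10 against control 3. Fkbp2, a luminal prolyl isomerase, differed by 0.47 (SE 0.23), Ppib, another, by 0.32 (SE 0.23) and Tmx1, a membrane-bound oxidoreductase, by 0.20 (SE 0.07). Control 1 carried most of the first 2 values: Fkbp2 was 1.04, 0.20 and 0.19 against controls 1, 2 and 3, and Ppib 0.87, 0.04 and 0.04. For other degradation and quality control genes, 12 of 15 were higher; their median of 0.11 was 0.03 against control 2 and -0.0035 against control 3. Vcp, the ATPase that extracts substrates, differed by 0.23 (SE 0.13), Ganab, a glucosidase subunit, by 0.33 (SE 0.22) and Ube2j1, an ER ubiquitin-conjugating enzyme, by -0.15 (SE 0.07). In the same order of controls, Vcp was 0.47, 0.19 and 0.02, and Ganab 0.88, 0.14 and -0.02. For other translocon, signal peptidase and glycosylation genes, 13 of 21 were higher, with a median of 0.02, among them Rpn1 at 0.24 (SE 0.12) and Sec11a at 0.15 (SE 0.07), while Sec61g was at -0.13 (SE 0.07); Rpn1 was 0.50, 0.16 and 0.08 against the controls, and Sec11a 0.25, 0.10 and 0.08. The Atf6-processing and related membrane factors were divided 5 to 5, with Atf6b at 0.29 (SE 0.20), the protease Mbtps2 at -0.17 (SE 0.11) and Creb3l4 at -0.15 (SE 0.08). Atf6b was 0.77, 0.07 and 0.03 against controls 1, 2 and 3, and Mbtps2 -0.37, -0.14 and 0.01.

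**Figure D4:**
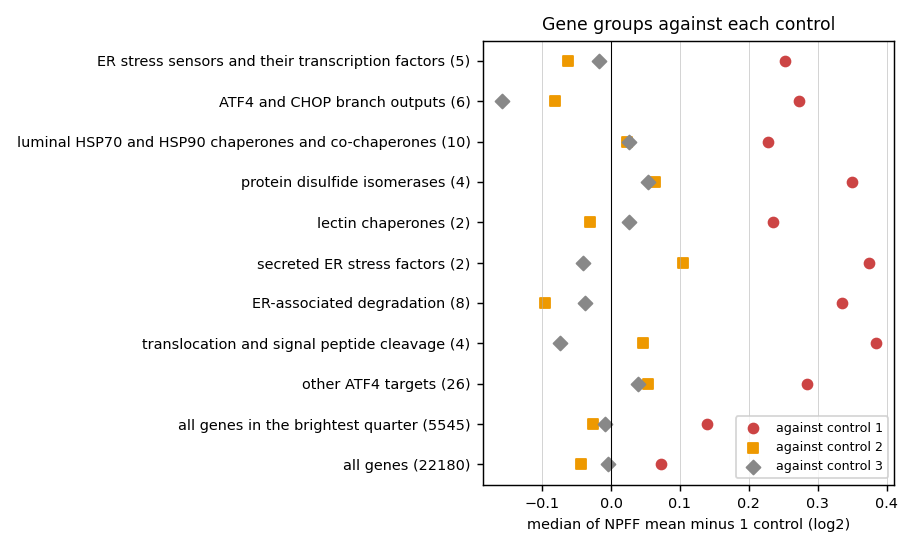
Median, over the genes of each group, of the NPFF mean minus 1 control array in log2 intensity, with the number of genes in parentheses. Against control 1 the groups and all genes lay between 0.07 and 0.38, and against controls 2 and 3 between -0.16 and 0.10, with the disulfide isomerases, the HSP70 and HSP90 group and the other Atf4 targets above 0 against both and the sensors, the Atf4 and CHOP outputs and ER-associated degradation below 0 against both.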

How the data were processed

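The authors deposited log2 intensities per transcript cluster, a scale read from their range of 4.59 to 14.0. Their background correction, normalization and genome build: not given in the sources used here. The sorted values of the arrays departed from their mean by up to 0.17, so quantile normalization over all 33794 features was applied. A platform annotation paired 23521 features with 1 symbol; the feature with the highest mean was kept per gene, giving 22180 genes, none removed as dim. NPFF and control (3 arrays each) were compared by limma (version 3.58.1, R 4.3.3) on group alone, with two-sided p-values adjusted by Benjamini-Hochberg across the 22180 genes and called under 0.05; SEs and intervals are those of that fit. The code of the fit was run on simulated data with normal noise of equal spread in both groups. That setting leaves out the larger control spread and the distance of control 1, so it speaks to the code and not to these arrays.

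The 41 measured genes, the related lists and the motifs were chosen with earlier results of these data known, so lists are described and not tested. Shown array by array are 10 fixed genes (Hspa5, Dnajb9, Herpud1, Xbp1, Atf4, Ddit3, Asns, Trib3, Chac1 and Ppp1r15a), the 2 genes of smallest p per role, and Ern1, Sel1l and Edem1, chosen after their values were seen; of related lists, up to 3 genes of smallest p. Atf3, Slc7a11 and Slc3a2 were named after their values were seen, and the brightest 25% of genes was set beside the list after seeing the data. Signal percentiles describe feature brightness, not relative transcript abundance. The number of arrays limits the precision. Protein sequences were not used here.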

Additional observations from a re-analysis of the deposited data

How the results depend on the processing

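Of the 41 genes, 0 passed limma after adjustment with all 6 arrays, in the 3 other scalings, with dim genes left out, with the mean over features, in each fit leaving out 1 array, and against control 2 or control 3 alone. Against control 1 alone, 22 passed and the median difference was 0.29. In such fits the lone control is assumed to vary like the NPFF arrays, and 6970 of all genes passed against control 1 and 18 against control 2, where 0 did with all arrays. The median difference of 0.07 was 0.06 as deposited, 0.07 with arrays centred and 0.04 with cyclic loess, and ranged from -0.01 (without control 1) to 0.13 (without control 2) with 1 array left out. Among genes with unadjusted p below 0.05, those higher in NPFF made up 33.3%, 19.0%, 12.1% and 42.4% (quantile, as deposited, centred, cyclic loess), and of genes without overlap 42.7%, 34.6%, 26.2% and 51.4%.

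Of 22 genes followed, 13 kept their sign throughout. With 1 array left out, Asns ranged from -0.023 to 0.15, Trib3 from -0.13 to 0.13, Chac1 from -0.12 to 0.24, Calr from -0.0028 to 0.20, Canx from -0.0020 to 0.056 and Ppp1r15a from -0.19 to 0.081. Against control 3 alone, Asns was -0.069, Trib3 -0.13, Chac1 -0.18, Creld2 -0.012 and Sec11c -0.059; against control 2 alone, Trib3 was -0.13, Chac1 -0.062, Calr -0.0063 and Canx -0.055; against control 1 alone, Ddit3 was 0.023 and Ppp1r15a 0.26. The cause was not tested. Over all 41 genes, 25 kept their sign in every fit leaving out 1 array.

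With the replicate number as a block, 0 of the 41 genes passed, 0 had an unadjusted p under 0.05 (2 without the block) and the median stayed 0.07. The labels state no shared day or batch for the numbers, so these were not taken to pair the arrays. Deviations of same-numbered arrays correlated at 0.23, 0.45 and -0.33. Deviations within a group sum to 0, so these values are not independent and cannot settle whether the arrays were paired.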
